A study of Arabidopsis thaliana with 6 samples.

Results

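Serine carboxypeptidase-like (SCPL) genes encode a plant family of secreted or vacuolar proteins with the fold and active site of serine carboxypeptidases. The list followed here holds 51 loci, SCPL1 to SCPL51. A member counts as measured where the array platform's probe table pairs a probe set with that gene alone, and where a gene had several such probe sets the one with the highest mean was used. In this way 32 of the 51 members were measured, among 16418 loci measured in all. They comprise 3 of the 19 genes of clade I (SCPL1 to SCPL19), the acyltransferase type, and 29 of the 32 genes of the other clades (SCPL20 to SCPL51).

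Carboxypeptidases of this fold remove amino acids from the C-terminus of peptides with an active serine. Clade I enzymes of known function use the same serine to move an acyl group from a glucose ester to another molecule. Known examples in Arabidopsis are SNG1 (SCPL8), which makes sinapoylmalate in leaves, SNG2 (SCPL19), which makes sinapoylcholine in seeds, and SCPL17, which acts in the synthesis of benzoylated glucosinolates in seeds. In the other clades BRS1 (SCPL24) is known as a suppressor of a weak brassinosteroid receptor mutant when overexpressed, and SCPL49 carries the name carboxypeptidase Y, after the vacuolar enzyme of yeast. SNG1, SNG2, SCPL17 and BRS1 were not analysed here, and neither were SCPL9 and SCPL10, clade I genes that also make sinapate esters.

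The samples were whole Arabidopsis thaliana seedlings of 1 genotype, 35S::PLT2-GR, so every array carries the fusion. The 35S promoter, which drives the fusion, is active in most tissues. The fusion joins the PLETHORA transcription factor PLT2, of the AP2-domain class, to the steroid-binding part of the glucocorticoid receptor. Seedlings aged 4 days were kept overnight in flasks of 50 ml liquid medium, about 50 seedlings each, and 3 flasks then received dexamethasone at 10 µM for 6 h, which lets the fusion enter the nucleus. The other 3 flasks received the solvent DMSO for 6 h (mock). The comparison asks which transcripts differ after the fusion is activated. Dexamethasone-treated seedlings without the fusion were not analysed here, so effects of the steroid and of the fusion cannot be told apart. In whole seedlings, fewer cells of a type and less RNA per cell cannot be told apart either.

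All values are the deposited log2 probe set values, and a change is dexamethasone minus mock. The 6 arrays had medians of 5.43 to 5.48 and first quartiles of 3.05 to 3.238. Over all probe sets with a gene, arrays of the same treatment correlated at 0.9904 to 0.9939 (Pearson) and arrays of different treatment at 0.9761 to 0.9810. The tissue label was checked on markers. Of the photosynthetic markers 2 of 8 were measured, and RCA, for Rubisco activase, had 10.75 to 10.90 in dexamethasone-treated and 11.11 to 11.20 in mock seedlings. Of the root markers 3 of 8 were measured, and PYK10, a root beta-glucosidase, had 11.89 to 12.004 in dexamethasone-treated and 11.89 to 12.04 in mock seedlings. Seed storage markers were not analysed here. On the linear scale the summed level of the photosynthetic markers was 2701 to 2958 with dexamethasone, against 3386 to 3482 in mock, and that of the root markers was 3844 to 4157 against 3939 to 4355. The root sum is almost all PYK10, as the root hair expansins EXPA7 and EXPA18 had log2 means of 4.98 and 4.83 with dexamethasone. Their mock means were 6.21 and 6.17. By limma, EXPA7 and EXPA18 fell by 1.23 and 1.35 (adjusted p = 0.00286 and 0.00755). RCA fell by 0.32 (adjusted p = 0.0475), but with any 1 array left out its adjusted p was 0.0701 to 0.1392. Their part in the changes below was not tested.

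The family moved in both directions. Of 32 measured members 7 rose (SCPL35, SCPL38, SCPL45, SCPL20, SCPL18, SCPL29 and SCPL49), 3 fell (SCPL28, SCPL34 and SCPL25) and 22 did not pass the threshold, an adjusted p of 0.05 by limma over 17504 probe sets with a gene. The rises are 21.9% of the measured members, against a background of 9.04% of all probe sets. The falls are 9.38%, near the background of 9.54%. In all 31.25% of members were called, against 18.6% of probe sets. The members' median change was 0.03, beside 0.02 over all measured loci. Changes of 2-fold or more that passed were found for 4 members, SCPL35, SCPL38, SCPL45 and SCPL28, or 12.5% of members against a background of 3.6% of probe sets. Of these SCPL38 was under the first quartile on all 6 arrays, and SCPL28 changed by -0.80 without dexamethasone replicate 1.

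**Figure D1:**
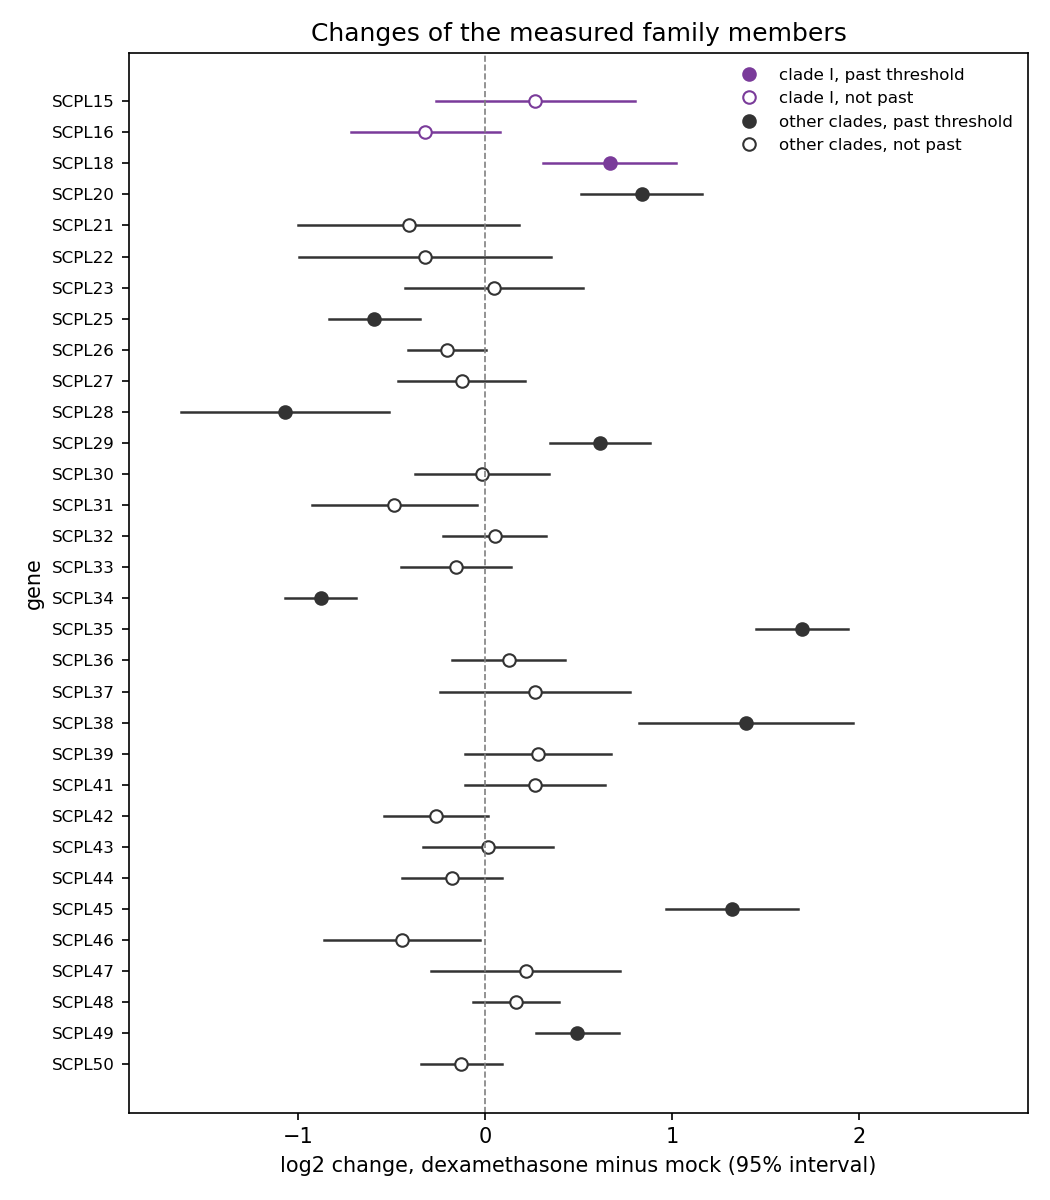
Log2 change (dexamethasone minus mock, horizontal axis) with its 95% limma interval for the 32 measured members in order of family number. Filled points passed the threshold, purple marks clade I, and the 10 filled points lie between -1.07 and 1.70.

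In clade I only SCPL15 (AT3G12240), SCPL16 (AT3G12220) and SCPL18 (AT1G33540) were measured, too few to describe the clade. SCPL18 had 3.26, 3.01 and 3.35 in dexamethasone-treated seedlings, against 2.79, 2.50 and 2.32 in mock seedlings. The groups did not overlap, and the change was 0.67 (1.59-fold, SE 0.15, adjusted p = 0.0239). All its mock values and that of dexamethasone replicate 2 lay under the first quartile of their arrays, so the fold is approximate. Its call was lost without dexamethasone replicate 1 (adjusted p = 0.0706), without dexamethasone replicate 3 (0.0673), and with mock replicate 2 (0.0742) or mock replicate 3 (0.0693) left out.

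SCPL15 had 5.47, 6.05 and 5.34 in dexamethasone-treated and 5.17, 5.18 and 5.70 in mock seedlings, with a change of 0.27 (adjusted p = 0.462). SCPL16 had 3.52, 3.501 and 3.15 in dexamethasone-treated and 3.40, 3.90 and 3.82 in mock seedlings, with a change of -0.32 (adjusted p = 0.245). The groups of both genes overlap. The 95% interval of the change ran from -0.26 to 0.80 for SCPL15 and from -0.71 to 0.08 for SCPL16. The clade I median was 0.27, and it was 0.0559 without dexamethasone replicate 2 and 0.45 without mock replicate 3. That of the other clades was 0.02, and it was -0.08 without dexamethasone replicate 1 and -0.05 without mock replicate 3. Whether the clades differ was not tested, and with 3 genes the clade I median is the value of SCPL15 alone.

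Among the other clades 6 of 29 measured members (20.7%) rose, against the background of 9.04%, and 3 (10.3%) fell, near the background of 9.54%. The largest rise was that of SCPL35 (AT5G08260). This gene had 9.17, 8.997 and 9.06 in dexamethasone-treated seedlings, against 7.34, 7.52 and 7.28 in mock seedlings. Every treated array lay more than 1 log2 unit above every mock array. The rise was 3.241-fold (log2 change 1.70, SE 0.10, adjusted p = 0.000236), and with 1 array left out it was 1.65 to 1.77.

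SCPL45 (AT1G28110) had 8.25, 8.03 and 7.90 with dexamethasone, against 6.89, 6.85 and 6.47 in mock. Its groups were again well apart, and the rise was 2.50-fold (log2 change 1.32, SE 0.15, adjusted p = 0.00203). For SCPL20 (AT4G12910) the values were 7.73, 7.97 and 7.47 in treated seedlings, against 6.96, 6.83 and 6.87 in mock seedlings, a 1.79-fold rise (log2 change 0.84, SE 0.14, adjusted p = 0.00777). The treated arrays of SCPL20 spread more widely (SD 0.25) than its mock arrays (SD 0.07), without reaching them (n = 3 each).

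Smaller rises were seen for SCPL29 (AT4G30810) and SCPL49 (AT3G10410). SCPL29 had 8.11, 7.94 and 7.80 in dexamethasone-treated and 7.39, 7.22 and 7.39 in mock seedlings, a 1.53-fold rise (log2 change 0.61, SE 0.11, adjusted p = 0.0118). SCPL49, the carboxypeptidase Y gene, had 8.98, 8.84 and 8.82 in dexamethasone-treated and 8.31, 8.40 and 8.45 in mock seedlings. The rise was 1.41-fold (log2 change 0.49, SE 0.09), with an adjusted p of 0.0133, and without mock replicate 1 its adjusted p was 0.0555. In both genes all treated arrays were above all mock arrays.

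SCPL38 (AT2G05850) differed from these in its level. It had 2.74, 2.25 and 3.20 with dexamethasone, against 1.11, 1.31 and 1.57 in mock, all of them under the first quartile of their arrays. The groups did not overlap, and the change was 1.40 (2.63-fold, SE 0.24, adjusted p = 0.00976). The fold is approximate, as signal over background was not analysed here. With 1 array left out the change was 1.16 to 1.64.

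**Figure D2:**
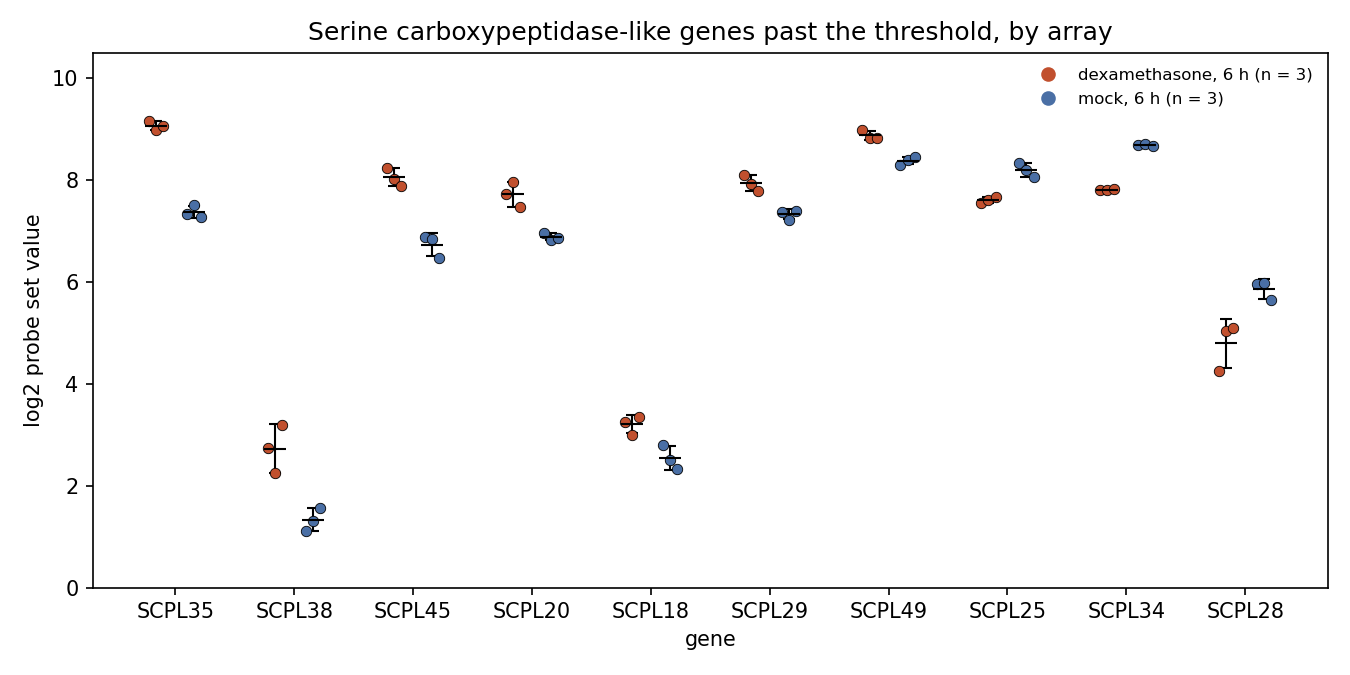
Log2 values on each array (points) with group mean and SD (bars) for the 10 members past the threshold, dexamethasone left of mock, n = 3 each. SCPL35 shows the widest gap relative to its spread upwards, with treated arrays at 8.997 to 9.17, and SCPL34 downwards, with treated arrays at 7.81 to 7.82.

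Of the 3 members that fell, SCPL34 (AT5G23210) was the most even across arrays. It had 7.81, 7.81 and 7.82 in dexamethasone-treated seedlings, against 8.69, 8.71 and 8.67 in mock seedlings. The SD was 0.0075 in treated and 0.0167 in mock seedlings (n = 3 each), and the gene was 1.84-fold lower with dexamethasone (log2 change -0.88, SE 0.08, adjusted p = 0.00101).

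SCPL25 (AT3G02110) had 7.56, 7.61 and 7.67 with dexamethasone, against 8.35, 8.20 and 8.07 in mock. It was 1.51-fold lower with dexamethasone (log2 change -0.59, SE 0.10, adjusted p = 0.00995), and its groups did not overlap. SCPL28 (AT2G35770) had 4.25, 5.03 and 5.10 in treated seedlings, against 5.96, 5.99 and 5.64 in mock seedlings. This is 2.10-fold lower with dexamethasone (log2 change -1.07, SE 0.24, adjusted p = 0.0219). Treated replicate 1 was the lowest array by a wide margin, and without it the fall was less than 2-fold, with a change of -0.80 beside -0.87 for SCPL34. Leaving out mock replicate 1 gave an adjusted p of 0.0745, and leaving out mock replicate 2 gave 0.0713.

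The 22 members that did not pass had changes of -0.48 (SCPL31) to 0.28 (SCPL39), 10 above 0 and 12 below. The 95% intervals of all 22 lay within a 2-fold change in either direction. This was narrow for SCPL21 and SCPL22, whose lower limits were -0.9991 and -0.9953. Many of the 22 had means under the first quartile (listed below). Signal over background was not analysed for them, so their intervals describe the probe set value only. The intervals of SCPL31 and SCPL46 left out 0, but their adjusted p was 0.121 and 0.133. The groups did not overlap in 4 of the 22, lower with dexamethasone in SCPL31, SCPL26 and SCPL50 and higher in SCPL48. The second probe set of SCPL50, described below, was higher with dexamethasone. Counting the members past the threshold, 14 of 32 members had groups that do not overlap, or 43.75%, against a background of 38.1% of probe sets. SCPL48 (AT3G45010) had 8.37, 8.44 and 8.28 with dexamethasone, against 8.27, 8.24 and 8.09 in mock (change 0.17, adjusted p = 0.29).

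The outcome of SCPL21 (AT3G25420) depended on 1 array. It had 1.92, 2.11 and 2.94 in dexamethasone-treated and 2.78, 2.67 and 2.74 in mock seedlings, all under the first quartile, and its change was -0.41 (adjusted p = 0.315). Without dexamethasone replicate 3 the change was -0.72 and the adjusted p 0.0125.

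The level of a probe set over all 6 arrays parted the calls in the family, as it did those of all probe sets. This split was made after the values were seen. The mean of 17 members lay above the mean first quartile of the arrays, and 5 of these rose and 3 fell, 47.1%, against 24.7% of all probe sets above it. The other 15 were SCPL18, SCPL21, SCPL22, SCPL30 to SCPL33, SCPL36 to SCPL39, SCPL41, SCPL43, SCPL44 and SCPL47. Of these SCPL18 and SCPL38 rose and none fell, 13.3%, against 3.27% of all probe sets at that level. Signal over background was not analysed for the remaining 13 either.

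Several members lie beside each other in the genome, with no other protein-coding gene between them in RefSeq's gene table for TAIR10.1. On chromosome 2, SCPL28 is next to SCPL26 (AT2G35780). SCPL26 had 8.30, 8.31 and 8.15 in dexamethasone-treated and 8.48, 8.45 and 8.45 in mock seedlings, a change of -0.20 (95% interval -0.41 to 0.01, adjusted p = 0.163), beside the -1.07 of SCPL28. Both genes had every treated array below every mock array, as had 18.8% of all probe sets. Also on chromosome 2, SCPL22 and SCPL23 had changes of -0.32 and 0.05, with groups that overlap. With 1 array left out SCPL22 ran from -0.65 (without mock replicate 1) to -0.11 (without mock replicate 3).

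On chromosome 3, SCPL36, SCPL37 and SCPL39 form a run of 3 genes with changes of 0.13, 0.27 and 0.28, none past the threshold. All 3 were under the first quartile on all 6 arrays. In the clade I run on the same chromosome SCPL14 lies between SCPL16 and SCPL15 and was not analysed here. The 5 neighbouring genes SCPL2 to SCPL6 on chromosome 1, and the 5 on chromosome 2 that include SNG1, were not analysed here either. No run of measured neighbours had more than 1 member past the threshold. With 18.6% of all probe sets called, these runs are too few to show whether neighbours change together.

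**Figure D3:**
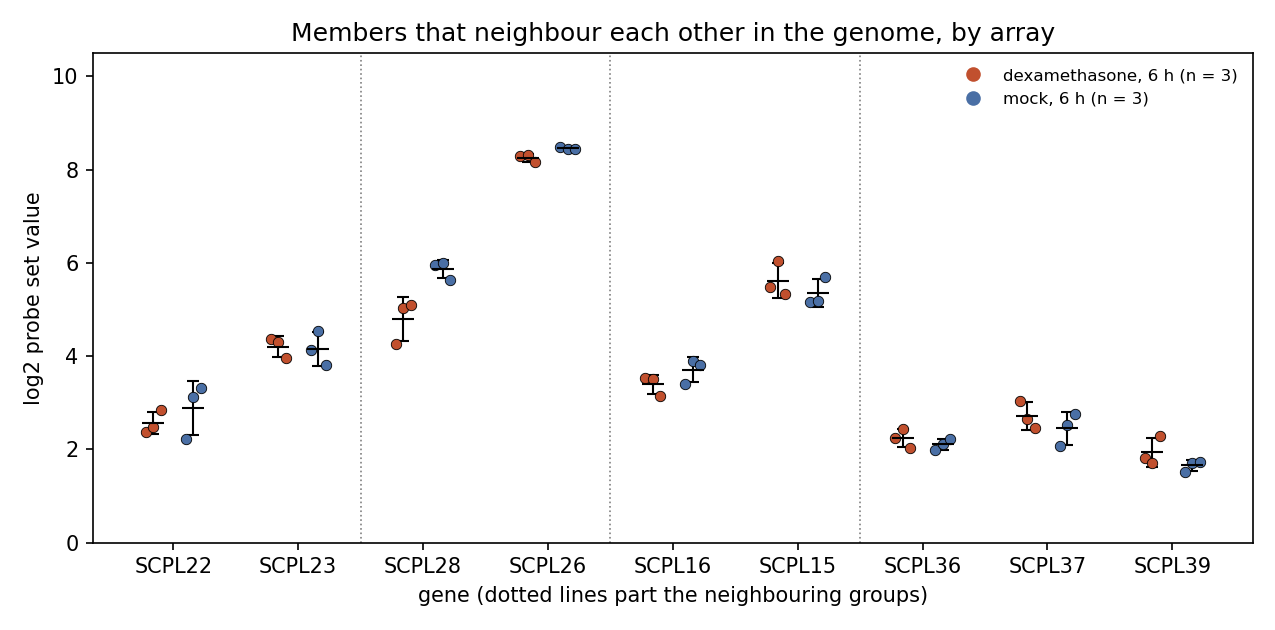
Log2 values on each array (points) with group mean and SD (bars) for members that neighbour each other in the genome, dexamethasone left of mock, n = 3 each. SCPL28, with treated arrays at 4.25 to 5.10, is the 1 member of these groups past the threshold.

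A pair of members had further probe sets, and these did not give the same answer. SCPL50 (AT1G15000) has 2 probe sets that the table pairs with it alone. The one used here had 7.87, 7.95 and 7.84 in dexamethasone-treated and 7.96, 7.97 and 8.11 in mock seedlings, a change of -0.13 (adjusted p = 0.395). The one with the lower mean had 7.76, 8.05 and 7.91 in dexamethasone-treated and 7.46, 7.35 and 7.18 in mock seedlings, a rise of 0.58 (adjusted p = 0.0176). That call was lost with dexamethasone replicate 2 (adjusted p = 0.0536), mock replicate 2 (0.0536) or mock replicate 3 (0.0545) left out. No direction can be given for SCPL50 from these values.

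SCPL27 (AT3G07990) had 5.89, 5.44 and 5.42 with dexamethasone, against 5.71, 5.78 and 5.63 in mock, a change of -0.12 (adjusted p = 0.609). A probe set shared by SCPL27 and AT3G08000 had 7.28, 7.41 and 7.22 with dexamethasone, against 6.56, 6.72 and 6.51 in mock, a rise of 0.71 (adjusted p = 0.00505). It is not counted as a value of SCPL27. Hybridisation of a probe set with several similar members was not checked.

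**Figure D4:**
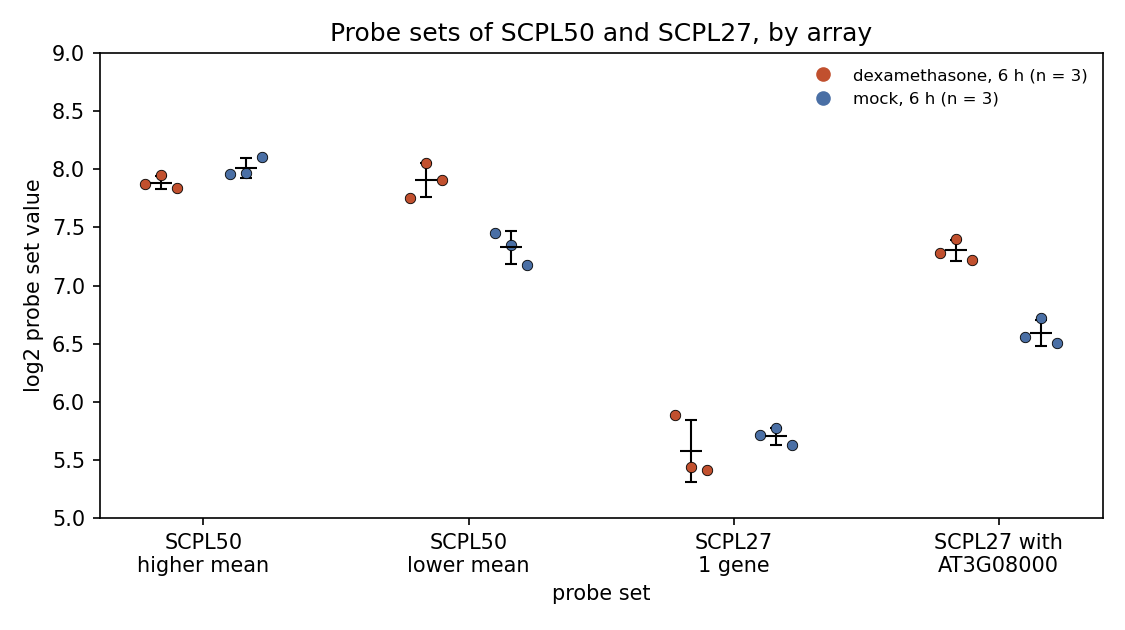
Log2 values on each array (points) with group mean and SD (bars) for both SCPL50 probe sets, the SCPL27 probe set and the one shared with AT3G08000, dexamethasone left of mock, n = 3 each. The second SCPL50 probe set and the shared one are higher with dexamethasone (changes 0.58 and 0.71), while the others differ by -0.13 and -0.12.

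The pathways around enzymes of known function were followed on lists. Of 21 genes of phenylpropanoid and sinapate ester synthesis 4 were measured and none passed the threshold. Over all probe sets 18.6% were called, and 4 genes are too few to describe the pathway. The smallest p was that of UGT84A4, a hydroxycinnamate glucosyltransferase gene of the type that makes the glucose esters used by clade I enzymes. It had 5.20, 5.26 and 5.00 in dexamethasone-treated and 5.40, 5.52 and 6.15 in mock seedlings (change -0.54, adjusted p = 0.11). Mock replicate 3 was the highest array, and without it the change was -0.31. HCT, an acyltransferase of the lignin route, and REF1 (ALDH2C4), the aldehyde dehydrogenase that yields sinapate, had changes of -0.14 and 0.19.

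Of 15 anthocyanin genes 7 were measured and none passed, where 18.6% of all probe sets did. These 7 are too few to describe the pathway. AT1G03495 (A3G-AT2), an anthocyanin acyltransferase gene that uses CoA esters and not glucose esters, came nearest. It had 7.55, 7.66 and 7.24 with dexamethasone, against 7.16, 6.97 and 7.03 in mock (change 0.43, adjusted p = 0.0614). Without dexamethasone replicate 3 its adjusted p was 0.026.

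Of 18 brassinosteroid genes, listed because of BRS1, only BRL1 and EXO were measured, and both rose, where 9.04% of all probe sets rose. BRL1, a brassinosteroid receptor gene related to BRI1, had 5.98, 5.73 and 5.70 in dexamethasone-treated seedlings, against 4.03, 4.005 and 4.43 in mock seedlings, a 3.13-fold rise (log2 change 1.64, SE 0.15, adjusted p = 0.000935). EXO, a brassinosteroid-induced gene of cell expansion, had 8.41, 8.40 and 8.28 with dexamethasone, against 6.98, 7.18 and 7.41 in mock, a 2.26-fold rise (log2 change 1.18, SE 0.13, adjusted p = 0.00166). Their treated and mock arrays were well apart. With 2 of 18 genes measured these values do not describe the pathway.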

How the data were processed

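Total RNA of whole seedlings was hybridised to 6 arrays, 3 per group. The authors deposited 1 log2 value per probe set and array. The submitters' processing notes name RMA and limma 3.24.15 but not what each did. The genome build is not given in the sources used here. Of 38408 probe sets, 17504 are paired in the platform's table with a gene, 16746 with 1 and 758 with several, and 16601 of those with 1 gene matched a RefSeq locus by gene ID. limma 3.58.1 in R 4.3.3 (lmFit, eBayes) compared dexamethasone with mock on the deposited values over the 17504 probe sets, two-sided, with Benjamini-Hochberg adjusted p-values and a threshold of 0.05. The code was tested on simulated data. SD is over 3 arrays, and SE is limma's moderated error. The labels name the arrays biological replicates, and the growth protocol describes these as batches of divided seedlings kept in flasks. The number of arrays limits the precision.

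Every measured member could be named, and protein and promoter sequences were not used here. Per-array values are given for members past the threshold and some others, added after their values were seen. From each pathway list those that passed, or the one with the smallest p, were named, and further members after their values were seen. The members and lists were chosen with earlier results of these data known. Alternatives are given in the closing section. Same-numbered arrays had deviations from their group means that correlated at -0.0099, -0.0163 and 0.0305, so the numbers were not taken as pairs.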

Additional observations from a re-analysis of the deposited data

Results flagged for a closer look

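A pair of probe sets outside the comparison of members were higher with dexamethasone than in mock. The second SCPL50 probe set rose by 0.58 (7.76 to 8.05 in dexamethasone-treated and 7.18 to 7.46 in mock seedlings), and the probe set shared by SCPL27 and AT3G08000 rose by 0.71 (7.22 to 7.41 in dexamethasone-treated and 6.51 to 6.72 in mock seedlings). Which transcripts these probe sets read was not tested.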

How the results depend on the processing

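With the replicate block 7 members rose and 3 fell, as without it, and the block changed no call of a member, of either further probe set or of a named pathway gene. The marker RCA did not pass with it (adjusted p 0.1011). SCPL35, SCPL38, SCPL45, SCPL20, SCPL34, SCPL25 and SCPL29 passed at an adjusted p of 0.05 under every alternative that tested them. SCPL38 and SCPL18 were not tested without the dimmest 30% of probe sets. With 1 array left out 6 to 7 members rose and 2 to 4 fell, 0 to 1 in clade I, where the median change was 0.0559 to 0.4455. At an adjusted p of 0.01, 4 members rose, 0 of clade I, and SCPL18 (0.0239), SCPL28 (0.0219), SCPL29 (0.0118) and SCPL49 (0.0133) were not past it. When a 2-fold change was required besides an adjusted p of 0.05, 3 rose, 0 of clade I, and 1 fell, so that in the other clades 3 rose and 1 fell. Without the dimmest 30%, 5 rose, 0 of clade I, whose median was -0.0242 over the 2 genes left. The median of the other clades was -0.0672 after quantile normalization and -0.12 without the dimmest 30%. The members' median, 0.03, was -0.04 after quantile normalization, -0.12 without the dimmest 30% and -0.05 without dexamethasone replicate 1.

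Over all genes, 1582 probe sets rose and 1670 fell. These counts were 574 and 631 at 0.01, 324 and 306 with the 2-fold change, and 828 to 1168 and 896 to 1309 with 1 array left out. Over all 38408 probe sets 2423 rose and 2447 fell. Of the anthocyanin list 1 rose with array weights, 2 with an intensity trend, 1 without the dimmest 30% and 0 to 1 with 1 array left out. Of the phenylpropanoid list 1 rose with the trend. SCPL23, SCPL30, SCPL32 and SCPL43, near 0 and never past the threshold, changed sign. With 1 array left out SCPL23 ran from -0.13 to 0.24, SCPL30 from -0.14 to 0.0702, SCPL32 from -0.0275 to 0.15 and SCPL43 from -0.0786 to 0.14. With array weights SCPL30 was 0.0042 and SCPL43 -0.0215. With quantile normalization SCPL32 was -0.0211 and SCPL43 -0.0672. SCPL50 was 0.58 with its second probe set, which passed and made 8 members that rose. The alternatives for both further probe sets were chosen after seeing the data. Apart from fewer arrays, fewer genes or a stricter threshold, the cause was not tested.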
